A study of Mus musculus with 9 samples.

Results

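The FGF receptor genes Fgfr1, Fgfr2 and Fgfr3, the ligand gene Fgf4 and 6 genes switched on by ERK signalling (Dusp6, Spry2, Spry4, Spred1, Etv4 and Etv5) were followed across lines of mouse epiblast stem cells. The 10 genes were picked out by symbol among 52609 annotated genes, with no threshold on their values, although earlier results of these data were known when the list was drawn up. All 10 passed the filter on low counts in every comparison between groups. RNA was measured in 9 libraries of 4 lines, as transcript-level estimated counts and TPM (a relative level scaled to transcript length). Levels are given below as CPM, library-size-scaled counts (TMM), and a gene is called where its edgeR adjusted p over all genes tested was below 0.05.

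The Dkk1_KO group (3 libraries) is a line that the labels give as a knockout of DKK1, a secreted Wnt antagonist. The IWP2_removed group (2 libraries) is a line from which IWP2 was withdrawn after derivation, and the IWP2 group (2 libraries) is a line labelled as Wnt inhibited and kept with IWP2, an inhibitor of the acyltransferase Porcupine that blocks Wnt secretion. The control group (2 libraries) carries neither. Medium of all 4 lines held 10 ng/mL FGF2, so FGF ligand was supplied in every group, beside 20 ng/mL Activin A, and the IWP2 dose was 5 µM. The treatment protocol also names SB431542, but no group here has it as an inhibitor in its labels. The lines grew on inactivated mouse embryonic fibroblasts, whose RNA can be part of each library. Each group is 1 line, so an effect of genotype or treatment cannot be told apart from a difference between lines. The labels do not say that libraries of a line were separate cultures, and p-values then measure only the spread between these libraries. Each library's deposited file also carries a letter (A, B or C) whose meaning is not stated.

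FGF ligands bind receptor tyrosine kinases on the cell surface, which signal through RAS, RAF and MEK to the kinase ERK. ERK activity raises transcription of its own brakes, among them the phosphatase DUSP6 and the Sprouty and Spred proteins, and of the ETS factors ETV4 and ETV5, so these genes are often read as markers of the pathway's output. Epiblast stem cells are maintained with Activin and FGF2. In the early mouse embryo FGF4 made by the epiblast acts on FGFR2 in the trophectoderm lineage, and FGFR1 and FGFR2 both act in the inner cell mass.

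Library totals ran from 10849490 to 17892751 estimated reads, and intervals were not computed since PCR copies are not independent molecules. The 3 Dkk1_KO libraries differed from each other far less than those of the other lines did, with a chi-square per degree of freedom of 1.74 to 2.16 over genes against 29.3 to 83.1, and may be repeats of 1 RNA. Dkk1 itself had 0.701 to 1.13 CPM in Dkk1_KO, 3.45 and 5.84 CPM in IWP2_removed, 2.89 and 0.348 CPM in IWP2, and 6.77 and 8.95 CPM in control libraries. The labelled cell type was not borne out in Dkk1_KO: 8 of 14 epiblast markers were lower and 3 higher than in control, and 14 of 15 trophoblast markers were higher. Summed trophoblast marker levels were 3116 to 3133 CPM in Dkk1_KO against 119 and 145 CPM in control, and summed epiblast levels 931 to 977 CPM against 2098 and 2278 CPM. Pou5f1 had 1.14 to 1.7 CPM in Dkk1_KO and 442 and 473 CPM in control, and Elf5 had 303 to 313 CPM in Dkk1_KO and at most 0.186 CPM in control. Summed feeder fibroblast markers were 2572 to 2649 CPM in Dkk1_KO and 4372 and 4900 CPM in control, with 12 of 16 lower. In bulk RNA fewer cells of a type and less RNA per cell cannot be told apart, and what these marker differences contribute to the member differences below was not tested.

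Compared per length, with transcripts under 500 bases left out because Fgfr1 and Fgfr2 gain much of their TPM there from few reads, Fgfr1 and Fgfr2 stood first in Dkk1_KO, and the remaining receptor, Fgfr3, was among the lowest. Fgfr1 averaged 129 ± 3.51 TPM and Fgfr2 81 ± 2.55 TPM in Dkk1_KO (SD, n = 3), ahead of Dusp6 at 23.3 ± 1.22 TPM and Etv4 at 17.7 ± 2.91 TPM. In control the order was led by Dusp6 at 90.4 ± 53.2 TPM and Fgfr1 at 76.7 ± 6.72 TPM (SD, n = 2), which did not differ beyond their spread, and Fgfr2 averaged 10.1 ± 0.0707 TPM. Fgf4 was the lowest of the 10 genes in Dkk1_KO at 0.161 ± 0.072 TPM and in control at 0.915 ± 0.629 TPM.

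In Dkk1_KO against control, 2 members rose, both receptors, and 5 fell, namely the ligand Fgf4 and 4 of the 6 feedback genes. Across all 18096 genes tested 21.3% were called higher and 23% lower in Dkk1_KO, so 7 of 10 members called is to be read against 44.3% of all genes called in either direction. The members' median log2 fold change was -0.78, against -0.03 over all genes.

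Fgfr2 (chr7:130162451-133123350, minus strand of GRCm38), the receptor that carries FGF signalling in many epithelia and in trophoblast stem cells of the mouse, rose most. It had 289, 301 and 289 CPM in Dkk1_KO, 30.5 and 27.2 CPM in IWP2_removed, 21.5 and 18.9 CPM in IWP2 and 28.8 and 29.5 CPM in control libraries. Every Dkk1_KO library stood far above all 6 others, which lay close together. Its log2 fold change in Dkk1_KO against control was 3.33 ± 0.12 (SE; adjusted p = 1.19e-06), a 10.1-fold difference that remained called with the Dkk1_KO libraries averaged to 1 (3.35, adjusted p = 0.000793).

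Fgfr1 (chr8:25513654-25575718, plus strand), the receptor most abundant in the control line, rose less. It had 649, 659 and 667 CPM in Dkk1_KO, 429 and 407 CPM in IWP2_removed, 364 and 314 CPM in IWP2 and 324 and 356 CPM in control libraries. Dkk1_KO did not overlap any other group. The log2 fold change was 0.95 ± 0.13 (adjusted p = 0.000457), and 0.97 (adjusted p = 0.0392) with Dkk1_KO averaged to 1. The call was lost on the TPM scale (log2 difference 0.70, adjusted p = 0.141 with limma), and why it was lost was not tested. Transcripts under 500 bases held like shares of the gene's TPM in both groups, 43.1% to 46.6% in Dkk1_KO and 46.1% and 47.9% in control.

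Fgfr3 (chr5:33721674-33737068, plus strand), a receptor best known from growing cartilage, was low and showed no call here. It had 4.48, 5.39 and 5.73 CPM in Dkk1_KO and 4.45 and 5.53 CPM in control libraries, ranges that overlapped. The log2 fold change was 0.06 ± 0.29 (adjusted p = 0.894), and its sign changed with the scaling (-0.52 to 0.25 over the alternatives).

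The ligand gene Fgf4 (chr7:144847367-144865243, plus strand) had few reads throughout. Its levels were 1.12, 0.456 and 0.708 CPM in Dkk1_KO, from 16, 6 and 10 estimated reads, against 4.99 and 2.05 CPM in control, from 56 and 33 reads. The Dkk1_KO libraries lay below both control libraries, and the log2 fold change was -2.18 ± 0.56 (adjusted p = 0.0128). The call was lost with Dkk1_KO averaged to 1 (adjusted p = 0.163) and without control replicate 1 (log2 -1.41, adjusted p = 0.117).

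Dusp6 (chr10:99263231-99267489, plus strand), the phosphatase that removes activating phosphates from ERK, had 54, 51.9 and 58.1 CPM in Dkk1_KO and 254 and 113 CPM in control libraries. The groups did not overlap, although the control libraries lay far apart. The log2 fold change was -1.75 ± 0.41 (adjusted p = 0.00861). It was lost with Dkk1_KO averaged to 1 (adjusted p = 0.142) and without control replicate 1 (-1.04, adjusted p = 0.105).

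Spry2 (chr14:105891947-105896819, minus strand), a Sprouty inhibitor of RAS to ERK signalling, had 22.8, 21.6 and 24.8 CPM in Dkk1_KO and 134 and 78.1 CPM in control libraries, without overlap. Its log2 fold change of -2.20 ± 0.22 (adjusted p = 9.27e-05) was the lowest among the feedback genes and remained called with Dkk1_KO averaged to 1 (adjusted p = 0.0128). Spred1 (chr2:117121374-117182279, plus strand), a membrane-bound inhibitor that brings neurofibromin to RAS, had 64, 66.8 and 65.3 CPM in Dkk1_KO and 231 and 168 CPM in control libraries. It too fell without overlap, by 1.61 ± 0.24 on the log2 scale (adjusted p = 0.000853), and by 1.59 (adjusted p = 0.0474) with Dkk1_KO averaged to 1. Etv5 (chr16:22381309-22439719, minus strand), an ETS transcription factor, had 46.7, 51.3 and 50.6 CPM in Dkk1_KO and 201 and 110 CPM in control libraries, a log2 fold change of -1.65 ± 0.28 (adjusted p = 0.00182). That call was lost with Dkk1_KO averaged to 1 (adjusted p = 0.0664).

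The other Sprouty gene and the other ETS gene stood higher in Dkk1_KO than in control without being called. Spry4 (chr18:38586247-38601415, minus strand) had 27.5, 28.6 and 30.4 CPM in Dkk1_KO and 22.2 and 14.2 CPM in control libraries, a log2 fold change of 0.67 ± 0.30 (adjusted p = 0.1). Etv4 (chr11:101769742-101785371, minus strand) had 44.6, 42.1 and 48.5 CPM in Dkk1_KO and 41.6 and 13.2 CPM in control libraries, a log2 fold change of 0.73 ± 0.50 (adjusted p = 0.275). Neither pair of groups overlapped, and for both genes control replicate 1 was the nearer to the Dkk1_KO libraries. Etv4 was called without control replicate 1 (1.77, adjusted p = 0.04), and both genes were called without the filter on low counts (adjusted p = 0.023 for Spry4 and 0.0177 for Etv4). Spry4 was also called when only these groups were fitted (adjusted p = 0.0219) and without either IWP2 library (adjusted p = 0.0151 and 0.0175).

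**Figure D1:**
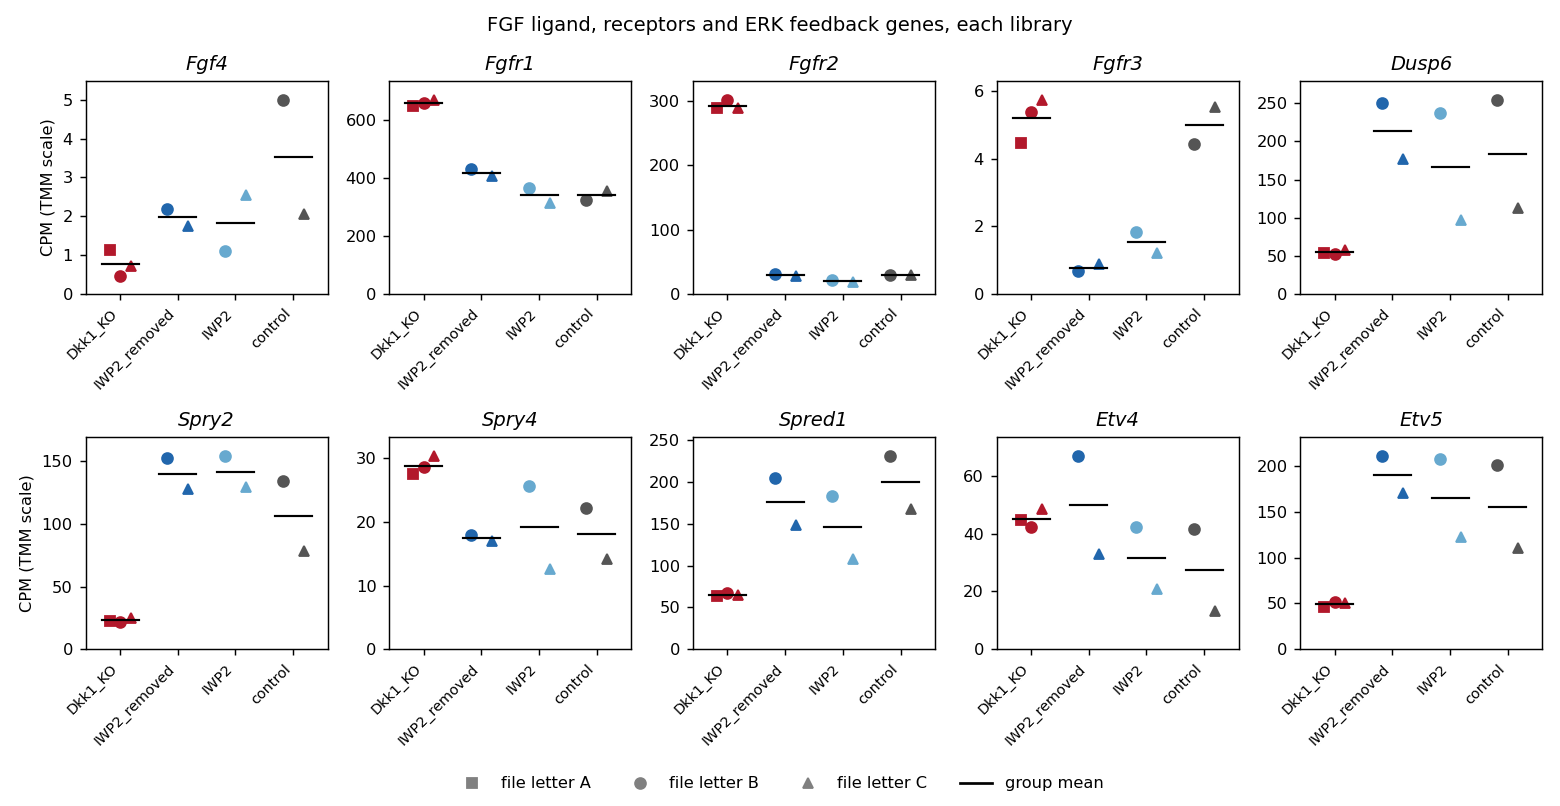
CPM on the TMM scale of the ligand, the 3 receptors and the 6 feedback genes in each library, with groups along the horizontal axis, point shape giving the file letter and the bar the group mean. Fgfr2 lies at 289 to 301 CPM in Dkk1_KO against 18.9 to 30.5 CPM elsewhere, Fgfr3 is lower in both IWP2 lines than in control, and the letter B points of Dusp6 and Etv5 lie above the letter C points outside Dkk1_KO.

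Other genes of the pathway gave the setting of these values in Dkk1_KO against control. Counts in each list are to be read beside 21.3% of all genes called higher and 23% lower. Of 17 tested FGF family genes other than Fgf4, 9 were lower and 0 higher by edgeR, with a median log2 fold change of -2.92. Also 0 were higher at an unadjusted p under 0.05 and 0 by DESeq2. The list holds Fgf11, Fgf12, Fgf13 and Fgf14, which encode intracellular family members and not secreted ligands. Of these Fgf12, Fgf13 and Fgf14 were called lower. Fgf15 had 0.236 ± 0.143 CPM in Dkk1_KO and 132 ± 6.32 CPM in control, Fgf8 had 0.146 ± 0.127 CPM and 34.2 ± 14 CPM, and Fgf14 had 0.191 ± 0.0773 CPM and 5.5 ± 0.4 CPM (SD, n = 3 and 2). Fgf15 was itself among the epiblast markers. Among 24 other FGF receptors and co-receptors 5 were higher and 9 lower: the receptor gene Fgfr4 had 64.5 ± 3.41 CPM in Dkk1_KO against 1.23 ± 0.105 CPM in control, the syndecan gene Sdc4 had 178 ± 12.2 CPM against 27.7 ± 6.29 CPM, and Sulf1, a heparan sulfate sulfatase, had 18.7 ± 1.19 CPM against 489 ± 45.5 CPM.

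Within the RAS to ERK cascade 6 of 24 genes were higher and 6 lower in Dkk1_KO, with a median of -0.03. For this list and those that follow, the shares over all genes were again 21.3% higher and 23% lower. The docking protein gene Gab1 had 493 ± 6.55 CPM in Dkk1_KO and 41.3 ± 2.03 CPM in control, the ERK-activated kinase gene Rps6ka1 had 230 ± 6.94 CPM and 36.6 ± 8.51 CPM, and the adaptor gene Grb2 had 210 ± 1.93 CPM and 90.4 ± 3.35 CPM. A wider list of 24 other ERK feedback and target genes split into 7 higher and 6 lower, with a median of 0.41. Dusp9, a phosphatase gene, had 256 ± 5.52 CPM in Dkk1_KO against 27.2 ± 3.58 CPM in control. Etv1, the third gene of the Etv4 and Etv5 subfamily, had 3.75 ± 0.764 CPM against 55.3 ± 18.4 CPM, and Epha4, an ephrin receptor gene, had 2.93 ± 0.316 CPM against 68.4 ± 6.53 CPM. Of 16 other receptor tyrosine kinases 4 were higher and 5 lower, Erbb3 at 250 ± 6.28 CPM in Dkk1_KO and 7.64 ± 3.62 CPM in control, Kit at 6.9 ± 0.846 CPM and 25 ± 0.662 CPM, and Ephb4 at 44.7 ± 2.07 CPM and 109 ± 15.7 CPM.

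Full-length receptors of Fgfr1, Fgfr2 and Fgfr3 carry a IIIb or a IIIc exon, alternative exons that encode the second part of the third immunoglobulin domain and set which ligands bind. The IIIb forms are typical of epithelia and the IIIc forms of mesenchyme. The IIIb exon of Fgfr2 is shown because the receptor's rise in Dkk1_KO came with a larger share of it among the transcripts that could be classed. It lies at chr7:130199758-130199905 (148 bases) on the minus strand of GRCm38 and is coding. It is printed in the direction of transcription, with capitals marking the codons for SGINSS, by which IIIb transcripts were classed. Transcripts of the IIIc class were those with the IIIc residues in place of these, and transcripts with neither or with both were left out.
Fgfr2 IIIb: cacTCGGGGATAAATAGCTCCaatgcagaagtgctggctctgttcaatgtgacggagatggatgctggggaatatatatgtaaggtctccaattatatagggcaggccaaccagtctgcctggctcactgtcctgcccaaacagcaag

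In TPM of the classed transcripts, 11 of them IIIb and 5 IIIc, the IIIb share of Fgfr2 was 67.7%, 73.9% and 70.4% in Dkk1_KO libraries, 16.4% and 28.8% in IWP2_removed, 6.73% and 23.3% in IWP2 and 7.07% and 9.27% in control libraries. Dkk1_KO stood apart from every other library. The classed transcripts held 48.6% to 52.5% of the gene's estimated reads in Dkk1_KO, 44.4% and 49.6% in IWP2_removed, 65.7% and 41.7% in IWP2 and 62.5% and 70.6% in control libraries. Of the gene's TPM, the unit of the share, they held 21% to 22.4% in Dkk1_KO and 22.5% and 29.9% in control libraries. In IWP2_removed they held 19.1% and 20% of it, and in IWP2 25.7% and 26.8%. The share therefore leaves out most of the TPM of Fgfr2, including a complete coding transcript with neither exon. The IIIb share averaged 70.7% ± 3.07 in Dkk1_KO (SD, n = 3) and 8.17% ± 1.55 in control (SD, n = 2), a difference of 62.5 percentage points. A two-sided exact permutation test gave p = 0.1, the smallest p that 3 against 2 libraries allow. IIIb transcripts had 1210, 1290 and 1170 estimated reads in Dkk1_KO libraries, and 9.13 and 23.6 estimated reads in control libraries, so the control share rests on few reads. The IIIc form also stood higher in Dkk1_KO, at 9.95, 8.45 and 9.28 TPM against 3.96 and 4.52 TPM in control, while the IIIb form was at 20.9, 23.9 and 22.1 TPM against 0.302 and 0.462 TPM. With transcripts annotated as complete coding sequences only, the share was 27.7% ± 5.03 in Dkk1_KO and 0% in control, so its size depends on which transcripts are counted.

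For Fgfr1 the IIIb share was 38.4%, 36.2% and 38.4% in Dkk1_KO and 39.9% and 27.4% in control libraries. These overlapped, and the difference of 3.99 percentage points gave p = 0.6 in the exact permutation test. The classed transcripts held 40.3% to 40.8% of Fgfr1 TPM in Dkk1_KO and 39.2% and 40.1% in control libraries. Fgfr3 had too few reads for a share to be read, with 3.52, 10 and 48.4 estimated IIIb reads in Dkk1_KO libraries and 1.69 and 6.03 in control libraries. Salmon divides reads shared by several transcripts by a model, and shares between isoforms carry that error. Among 6 splicing regulators, not all of them particular to epithelia, 3 were called higher in Dkk1_KO and 0 lower, beside 21.3% of all genes called higher. Esrp1, which promotes IIIb splicing of Fgfr2 in epithelial cells, had 81.4 ± 2.53 CPM in Dkk1_KO and 0.756 ± 0.19 CPM in control. Esrp2 had 40.2 ± 2.62 CPM and 1.74 ± 1.06 CPM, and Celf1 had 393 ± 3.21 CPM and 253 ± 5.59 CPM (SD, n = 3 and 2). Whether these genes bear on the IIIb share of Fgfr2 was not tested.

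**Figure D2:**
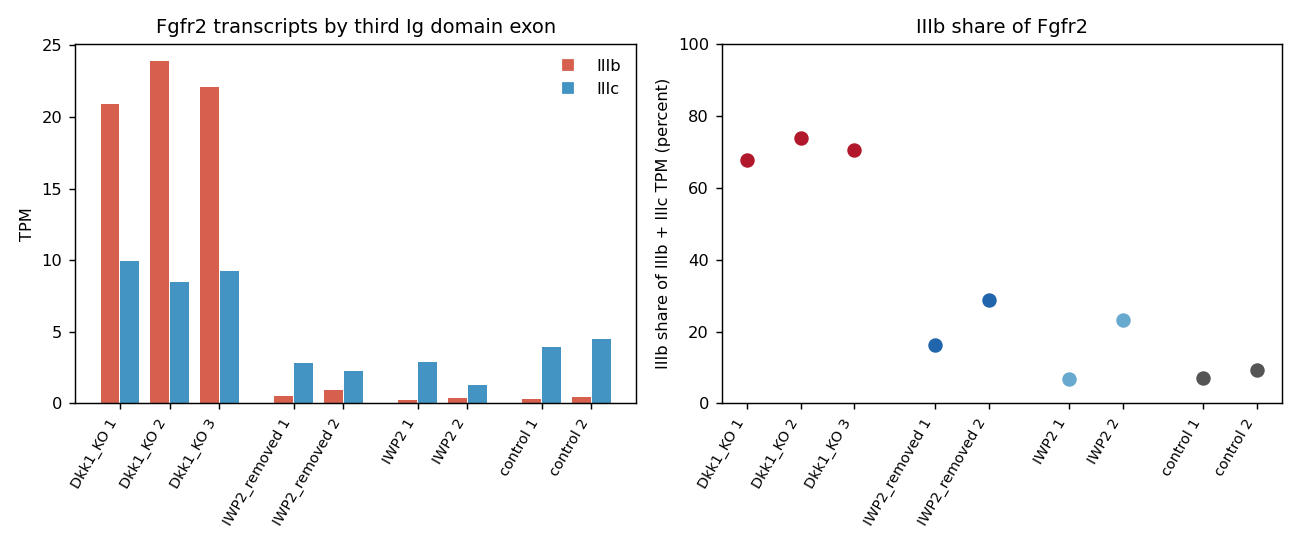
Left, TPM of Fgfr2 transcripts with the IIIb exon (red) and the IIIc exon (blue) in each library. Right, the IIIb share of their sum in percent: the 3 Dkk1_KO libraries lie between 67.7% and 73.9% and the other 6 between 6.73% and 28.8%.

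The lines with a history of IWP2 were compared with the same control libraries, so these comparisons are not independent of each other or of the one above. In IWP2_removed against control 1 of 10 members fell, Fgfr3, and 0.586% of all genes were called lower. In IWP2 against control 1 of 10 fell, again Fgfr3, with 0.917% of all genes called lower. The members' median log2 fold change was 0.10 in IWP2_removed and -0.07 in IWP2, beside 0.00 and 0.01 over all genes.

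Fgfr3 had 0.666 and 0.88 CPM in IWP2_removed, 1.83 and 1.22 CPM in IWP2 and 4.45 and 5.53 CPM in control libraries, from 11 and 14, 33 and 21, and 50 and 89 estimated reads. The groups did not overlap, and both IWP2 lines lay below every control and Dkk1_KO library. The log2 fold change against control was -2.68 ± 0.36 in IWP2_removed (adjusted p = 0.0166) and -1.71 ± 0.33 in IWP2 (adjusted p = 0.0419). Over the alternatives the adjusted p ran from 3.59e-06 to 0.235 for IWP2_removed and from 0.00283 to 0.471 for IWP2, and the log2 fold change stayed between -2.90 and -1.34 and between -2.47 and -1.27. Without the Dkk1_KO libraries in the model both calls were lost (adjusted p = 0.23 for IWP2_removed and 0.279 for IWP2), and 1 and 12 genes of all those tested were called, against 227 and 396 with them. With the replicate number as a block the IWP2 call was lost (adjusted p = 0.0749), and 135 genes in all were called in IWP2_removed.

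The remaining receptors were not called in either line by the main edgeR fit. Fgfr2 averaged 20.2 CPM in IWP2 against 29.1 CPM in control, with no overlap between libraries and a log2 fold change of -0.53 ± 0.12 that missed the threshold with edgeR (adjusted p = 0.0671) and passed it with DESeq2 (adjusted p = 0.018). In IWP2_removed Fgfr2 averaged 28.9 CPM, a log2 fold change of -0.01 ± 0.12 against control. Fgfr1 averaged 418 CPM in IWP2_removed, 339 CPM in IWP2 and 340 CPM in control, with log2 fold changes against control of 0.30 ± 0.13 (adjusted p = 0.436) and -0.00 ± 0.13 (adjusted p = 0.998). Fgf4 had 2.18 and 1.76 CPM in IWP2_removed and 1.11 and 2.55 CPM in IWP2, within or beside the control range of 2.05 to 4.99 CPM.

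None of the 6 feedback genes was called in either IWP2 line by the main edgeR fit or DESeq2, or had an unadjusted p under 0.05. Spred1 in IWP2 was called lower under an alternative fit, with log2 fold changes from -0.89 to -0.13 over the alternatives. Dusp6 had 251 and 177 CPM in IWP2_removed, 237 and 96.7 CPM in IWP2 and 254 and 113 CPM in control libraries. The spread within each line was wider than the differences between line means, and letter B lay above letter C in each line, as described below. Overlap of the groups therefore does not compare libraries of like letter. Spry2 had 152 and 128 CPM in IWP2_removed, 154 and 129 CPM in IWP2 and 134 and 78.1 CPM in control libraries, and Spry4 had 17.9 and 17 CPM, 25.6 and 12.7 CPM, and 22.2 and 14.2 CPM. Spred1 had 205 and 148 CPM in IWP2_removed, 183 and 108 CPM in IWP2 and 231 and 168 CPM in control libraries. Etv4 had 66.8 and 32.9 CPM in IWP2_removed, 42.3 and 20.8 CPM in IWP2 and 41.6 and 13.2 CPM in control, and Etv5 had 211 and 170 CPM, 208 and 122 CPM, and 201 and 110 CPM. In each of these 6 genes the groups overlapped, and their log2 fold changes against control ran from -0.18 ± 0.26 (Spred1) to 0.87 ± 0.54 (Etv4) in IWP2_removed and from -0.45 ± 0.26 (Spred1) to 0.42 ± 0.23 (Spry2) in IWP2. Letter for letter, Spry2, Etv4 and Etv5 stood above the control library in every IWP2_removed and IWP2 library, and Spred1 stood below it. Dusp6 and Spry4 kept no common direction in that reading. None of these differences was called in the main fit. The share of all genes with a common direction in this reading was not computed, and both lines were set against the same control libraries.

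Few other genes of the pathway were called in the IWP2 lines. Spred3, a Spred family gene, was higher in both, at 64.5 ± 0.252 CPM in IWP2_removed and 72.4 ± 3.33 CPM in IWP2 against 33.3 ± 7.03 CPM in control (SD, n = 2 each; adjusted p = 0.0347 and 0.015), the 1 of 24 other feedback and target genes called by edgeR. Called higher among all genes were 0.669% in IWP2_removed and 1.27% in IWP2. The receptor tyrosine kinase gene Kit was higher too, at 53.7 ± 0.0296 CPM in IWP2_removed and 53.1 ± 6.08 CPM in IWP2 against 25 ± 0.662 CPM in control (adjusted p = 0.0208 and 0.015). Erbb3 was lower in IWP2, at 2.53 ± 0.278 CPM against 7.64 ± 3.62 CPM (adjusted p = 0.0338), and Sulf1 lower in IWP2_removed, at 195 ± 35.8 CPM against 489 ± 45.5 CPM (adjusted p = 0.0415). On the TPM scale limma called 0 genes of the lists that hold Spred3, Kit, Erbb3 and Sulf1 in either line. Without the Dkk1_KO libraries in the model few genes of all those tested stayed called, as given for Fgfr3 above. At most 1 of Spred3, Kit and Sulf1 could then be called in IWP2_removed. For Spred3, Kit and Erbb3 in IWP2 the count of all genes does not settle whether the calls stayed. Part of the spread in the main fit came from Dkk1_KO libraries, which may be repeats of 1 RNA. Why calls were lost without these libraries was not tested.

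Set against each other, IWP2_removed and IWP2 had 0 of 10 members called by edgeR, and 0 by DESeq2, where 0.0608% of all genes were called by edgeR. At an unadjusted p under 0.05 there were 2 members, beside 9.69% of all genes. Fgfr2 averaged 28.9 CPM in IWP2_removed and 20.2 CPM in IWP2 (log2 fold change 0.52 ± 0.12, adjusted p = 0.171) and Fgfr3 averaged 0.773 CPM and 1.53 CPM (-0.98 ± 0.36, adjusted p = 0.408), both without overlap. Among all genes 11 were called, and 2 with the replicate number as a block.

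**Figure D3:**
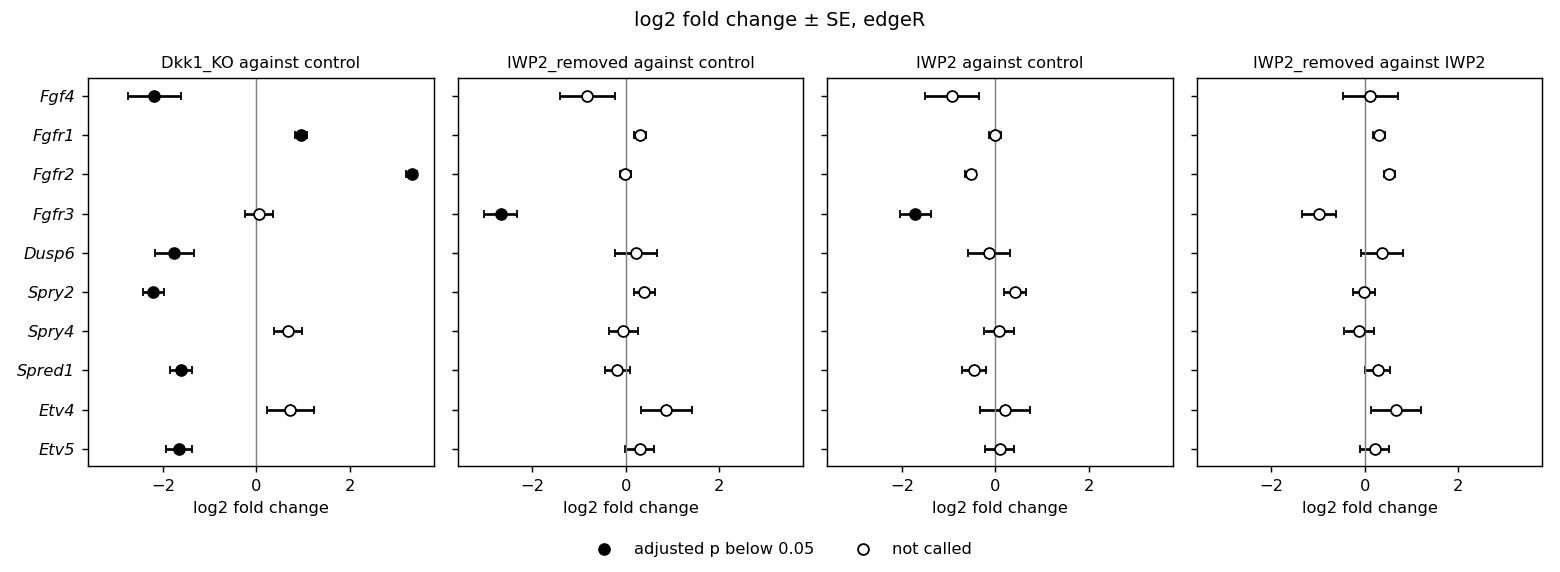
Log2 fold change with its SE for each member in the 4 comparisons between groups, filled where the edgeR adjusted p was below 0.05. In Dkk1_KO against control Fgfr1 and Fgfr2 lie above 0 and Fgf4, Dusp6, Spry2, Spred1 and Etv5 below it, and in the IWP2 lines Fgfr3 alone is filled.

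Within lines the feedback genes followed the letter of the file. In each of the IWP2_removed, IWP2 and control lines the letter B library exceeded the letter C library for all 6 feedback genes, as for 26.5% of 16464 genes tested. In a model with the line as a block, 4 members were higher in B and 0 lower, beside 5.13% of all genes called higher in B. DESeq2 also called 4 higher and 0 lower, and at an unadjusted p under 0.05 there were 6 higher and 0 lower, beside 15.8% of all genes higher and 13.9% lower. The members' median log2 difference was 0.50, against -0.00 over all genes.

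Etv4 differed most. It had 66.8 CPM in B and 32.9 CPM in C of IWP2_removed, 42.3 and 20.8 CPM in IWP2, and 41.6 and 13.2 CPM in control, ratios of 2.03, 2.03 and 3.16. The log2 difference was 1.23 ± 0.17 (adjusted p = 0.00995). Dusp6 had 251 CPM in B and 177 CPM in C of IWP2_removed, 237 and 96.7 CPM in IWP2, and 254 and 113 CPM in control, ratios of 1.42, 2.45 and 2.26 and a log2 difference of 1.0 ± 0.18 (adjusted p = 0.0206). For both genes B lay above C in every one of these lines, with the smallest Dusp6 ratio in IWP2_removed.

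Etv5 had B over C ratios of 1.24 in IWP2_removed, 1.71 in IWP2 and 1.83 in control, a log2 difference of 0.66 ± 0.15 (adjusted p = 0.0399). Spred1 had ratios of 1.38, 1.69 and 1.37 in the same lines, a log2 difference of 0.57 ± 0.13 (adjusted p = 0.0398). The Sprouty genes pointed the same way without a call: Spry2 had ratios of 1.19, 1.19 and 1.71 (0.43 ± 0.15, adjusted p = 0.103) and Spry4 1.05, 2.02 and 1.56 (0.59 ± 0.21, adjusted p = 0.114). The receptors and the ligand showed no common direction. Fgfr1 had ratios of 1.06, 1.16 and 0.91, Fgfr2 1.12, 1.14 and 0.974, Fgfr3 0.757, 1.5 and 0.805 and Fgf4 1.24, 0.435 and 2.43, and their log2 differences lay between -0.02 ± 0.34 and 0.18 ± 0.48.

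Leaving out the IWP2_removed line left 2 members called, with Etv5 (adjusted p = 0.0749) and Spred1 (adjusted p = 0.199) lost, and without the control line Etv5 was lost (adjusted p = 0.07). Without the IWP2 line 5 were called, Spry2 among them (0.51, adjusted p = 0.0464).

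In the Dkk1_KO line the B over C ratios were 0.893 for Dusp6, 0.869 for Etv4, 1.01 for Etv5, 1.02 for Spred1, 0.871 for Spry2 and 0.941 for Spry4, so B exceeded C in 2 of 6. A fit of all 8 B and C libraries called 0 members and 0 genes. In a test added after the values were seen, of the letter difference in Dkk1_KO minus that in the other 3 lines, edgeR called 0% of 16228 genes. At an unadjusted p under 0.05 there were 1074 genes (6.62%), and 2 members: Etv4, with a difference of -1.44 ± 0.33 (edgeR adjusted p = 0.395), and Dusp6, with -1.17 ± 0.35 (adjusted p = 0.543).

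**Figure D4:**
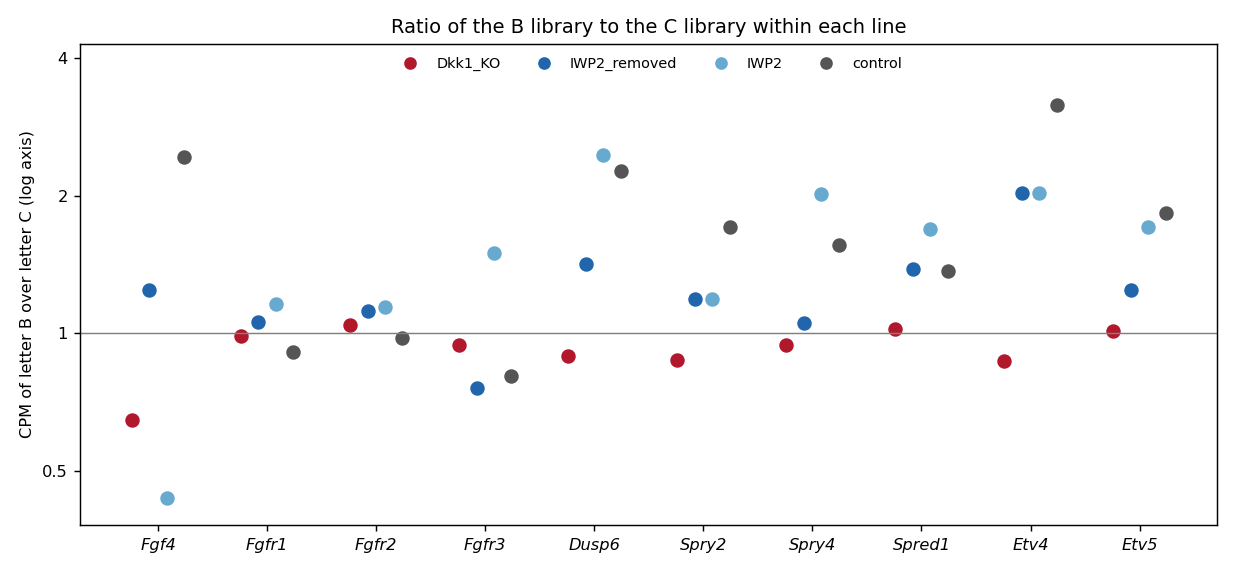
Ratio of CPM in the letter B library to the letter C library of each line, on a log axis, for each member. The feedback genes lie above 1 in IWP2_removed, IWP2 and control, up to 3.16 for Etv4 in control, while the Dkk1_KO points lie between 0.869 and 1.02 for these genes.

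The wider list of ERK feedback and target genes moved with the letter as well. Of 24 tested, 12 were higher in B and 0 lower, DESeq2 called 12 and 0, and at an unadjusted p under 0.05 there were 17 higher and 1 lower. The median log2 difference was 0.79. Egr1 and Fos, immediate early genes that ERK induces, had log2 differences of 1.28 ± 0.13 and 1.47 ± 0.15 (adjusted p = 0.0054 for both), and Plk2, a kinase gene, had 1.38 ± 0.15 (adjusted p = 0.00642). Egr1 had 532 CPM in B and 228 CPM in C of IWP2_removed, 482 and 180 CPM in IWP2 and 506 and 226 CPM in control, with B above C in each, whereas Dkk1_KO had 509 CPM in B and 530 CPM in C.

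Of the cascade genes themselves, 0 of 24 were called by edgeR, and 3 were higher and 3 lower at an unadjusted p under 0.05, while DESeq2 called 1 lower. Among 15 FGF family genes tested, with Fgf4 left out, 4 were higher and 1 lower in B. Fgf5, also an epiblast marker, had a log2 difference of 1.52 ± 0.16 (adjusted p = 0.0054), Fgf2 had 1.19 ± 0.21 (adjusted p = 0.0204), and Fgf11, an intracellular family member, had -1.68 ± 0.23 (adjusted p = 0.0108). Of 23 other receptors and co-receptors 3 were higher in B, namely Flrt2 (1.43 ± 0.18), Gpc4 (0.76 ± 0.15) and Fgfbp1 (1.61 ± 0.31). Of 16 other receptor tyrosine kinases 4 were higher in B and 0 lower, beside 5.13% of all genes called higher. Axl (1.02 ± 0.17), Met (1.11 ± 0.22) and Erbb4 (1.35 ± 0.31) were among these 4. At an unadjusted p under 0.05, 7 of the 16 were higher and 0 lower.

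Other measures moved with the letter too, and their part in it was not tested. Of 14 epiblast markers 2 were lower in B, Otx2 (-1.07 ± 0.14) and Sox2 (-0.68 ± 0.11), and 1 was higher, Fgf5. The summed epiblast level was 2993 CPM in B and 3164 CPM in C of IWP2_removed, 2058 and 4304 CPM in IWP2, and 2278 and 2098 CPM in control. Of 16 feeder fibroblast markers 3 were higher in B, and their sum was 4831 CPM in B and 4019 CPM in C of IWP2_removed, 3818 and 3142 CPM in IWP2, and 4372 and 4900 CPM in control. Neither of these sums moved the same way in all 3 lines. The summed trophoblast level did, at 161 CPM in B and 113 CPM in C of IWP2_removed, 104 and 69.1 CPM in IWP2, and 145 and 119 CPM in control. That common direction rested on 1 gene, Eomes, the only 1 of 10 tested trophoblast markers called higher in B (1.54 ± 0.30, adjusted p = 0.0271). Eomes had 108 CPM in B and 45.6 CPM in C of IWP2_removed, 50.6 and 28 CPM in IWP2, and 72.4 and 12.1 CPM in control. The median log2 difference of the trophoblast list was 0.08, with 1 gene higher and 1 lower at an unadjusted p under 0.05. Of 8 tested extraembryonic endoderm markers 1 was called higher in B, Dab2 (0.82 ± 0.17, adjusted p = 0.0325), and 4 were higher and 0 lower at an unadjusted p under 0.05, with a median log2 difference of 0.71. Their sum was 381 CPM in B and 268 CPM in C of IWP2_removed, 343 and 170 CPM in IWP2, and 462 and 475 CPM in control. Library totals were lower in B than in C in each of these lines.

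**Figure D5:**
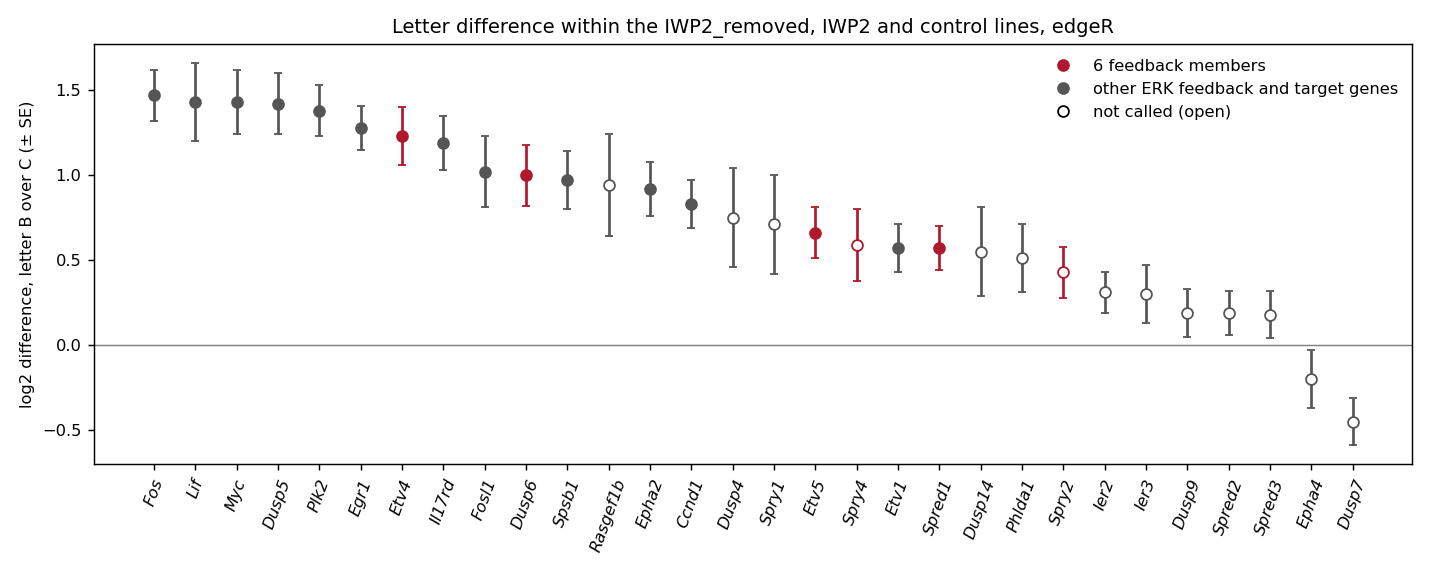
Log2 difference of letter B over letter C with its SE, over the IWP2_removed, IWP2 and control lines, for the 6 feedback members (red) and 24 other ERK feedback and target genes (grey), filled where called. All but Epha4 and Dusp7 lie above 0, with Etv4 at 1.23 and Dusp6 at 1.0 among the higher ones.

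As a description of how alike the feedback genes were, their profiles over the 6 libraries without Dkk1_KO correlated in pairs with Pearson's r from 0.18 (Spry2 with Spred1) to 0.97 (Dusp6 with Etv5) over 15 pairs. These libraries share lines and letters, so the values are not independent. Among 9746 other genes with a mean of at least 5 TPM, the 5 most like the mean feedback profile were the kinase gene Sgk1 (r = 0.995), Casp8ap2 and Tes (0.990 each), Ppp1r10 (0.988) and Etv1 (0.986). Sgk1 had 50.6 and 27.8 CPM in IWP2_removed, 44.6 and 15.7 CPM in IWP2 and 50.9 and 13.9 CPM in control. The ligand and the receptors were less like that profile, with r of 0.38 for Fgfr1, 0.26 for Fgfr2, -0.24 for Fgfr3 and 0.01 for Fgf4.

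The RefSeq promoter table of GRCm38.p6 holds windows, from 250 bases before to 50 after the start, for 7 of the 10 members. The letters CCGGAA, a core bound by ETS factors, searched on both strands, were in the window of 1 of them, Spry2, and in 14.9% of all 32851 windows.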

How the data were processed

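RNA was sequenced from 9 libraries prepared with a TruSeq Stranded mRNA kit, per the labels. The authors deposited 1 table per library with estimated counts, TPM and an effective length for each transcript. Salmon, DESeq2 and edgeR appear, with no version, in the submitters' processing notes. For the transcriptome build used, the sources here give nothing. Estimated counts need not be whole, and Salmon divides reads that several transcripts share.

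In every library 133399 of 133618 transcripts matched the GENCODE vM21 annotation of GRCm38 by stable identifier, and the unmatched ones held 0.117% to 0.161% of the reads. Estimated counts and TPM were summed by the annotation's gene identifier, and counts were rounded. Library totals of 10849490 to 17892751 reads set the precision, and genes with few reads, such as Fgf4 and Fgfr3, are the least precise.

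The main test was the quasi-likelihood test of edgeR 4.0.16 in R 4.3.3, with TMM scaling, filterByExpr and a mean per group over all 9 libraries. Benjamini-Hochberg adjustment ran over all genes tested. The letter of the file was tested in the IWP2_removed, IWP2 and control lines with the line as a block. Alternatives were other scaling factors, DESeq2 1.42.0, limma 3.58.1 on log2(TPM + 1) and log2(TPM + 0.1) for genes with a mean of at least 1 TPM, no filter, a length offset, blocks, fewer groups and each library left out. The letter test of Dkk1_KO against the other lines, the count of genes with B above C in all 3 lines, TPM from transcripts of at least 500 bases and the fit of 6 libraries with a replicate block were added after seeing the data. The scripts were tested on simulated data. With these settings the estimate of common dispersion was 0.0524.

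The replicate numbers of the labels were checked for pairing through the difference between the first and the second library of each line over 12107 genes. These differences correlated with r of 0.452 to 0.677 between IWP2_removed, IWP2 and control, where number and letter coincide, and with r of -0.133 to -0.045 between these lines and Dkk1_KO. By letter, Dkk1_KO correlated with r of 0.029 to 0.065. Receptor transcripts were classed as IIIb or IIIc by the peptide their annotated sequence encodes.

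All 10 members are described. From each list of pathway genes, up to 3 called genes with the smallest adjusted p are named for the comparisons where the list is described. The members and lists were chosen with earlier results of these data known. Spry3 is a list gene without a match in the annotation used.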

Additional observations from a re-analysis of the deposited data

How the results depend on the processing

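Of 922 member results under alternatives 873 kept their direction, where called, and their side of the threshold, 39 lost a call and 10 gained one. For each change named here the cause was not tested, beyond fewer libraries or genes where the setting itself has them. In Dkk1_KO against control, 8018 genes and 7 members were called. The counts were 5037 and 5107 genes with limma on log2(TPM + 1) and log2(TPM + 0.1), and 2724 genes and 4 members with the Dkk1_KO libraries averaged to 1, a single value assumed to vary like the other groups. In IWP2_removed against control 227 genes and 1 member were called. The gene count was 627 with DESeq2, 732 without a filter, 79 with the length offset, 10 with only these groups, 135 with the replicate block, 90 and 81 with limma, and 1 with Dkk1_KO averaged or left out. The member count was 0 with only these groups, with limma on log2(TPM + 1), and with Dkk1_KO averaged or left out. Leaving out 1 library gave 14 to 738 genes and 0 to 1 members. In IWP2 against control 396 genes and 1 member were called. The gene count was 1002 with DESeq2, 1220 without a filter, 169 with the length offset, 1 with only these groups, 154 and 137 with limma, 10 with Dkk1_KO averaged and 12 without it. The member count was 2 with DESeq2. It was 0 with only these groups, the replicate block, the letter block, Dkk1_KO averaged, and Dkk1_KO left out with or without the replicate block. Leaving out 1 library gave 70 to 2432 genes and 0 to 3 members. In IWP2_removed against IWP2 11 genes were called. There were 339 with DESeq2, 414 without a filter, 4 with the length offset, 0 with only these groups, 2 with the replicate block, 3 with the letter block, 34 and 37 with limma, 1 with Dkk1_KO averaged or left out, and 2 with Dkk1_KO left out and the replicate block. Leaving out 1 library gave 0 to 454. The replicate block changed no other member's call. For letter B against C 1389 genes and 4 members were called. There were 2979 genes without a filter, and 0 genes and 0 members with the Dkk1_KO libraries added. Leaving out 1 line gave 472 to 2026 genes and 2 to 5 members. The IIIb share of Fgfr2 in Dkk1_KO minus that in control was 62.5 percentage points, 53.6 as a share of reads and 27.7 over complete coding transcripts, each with p = 0.1 in the exact permutation test.

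Moving to limma shifted the median log2 fold change of all genes in Dkk1_KO against control to -0.149 and -0.164. Fgf4 and Fgfr3 rest on 6 to 89 reads a library, and differences of the size of their SE were not detectable at this depth. With 2 libraries in most groups, member differences that missed the threshold are not shown to be absent.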

Other observations

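Spry2 and Spred1, both inhibitors of the pathway, had the lowest pair correlation among the feedback genes over the 6 libraries without Dkk1_KO (r = 0.18), and in IWP2 against control their log2 fold changes were 0.42 ± 0.23 and -0.45 ± 0.26, neither called. The IIIb share of Fgfr2 was higher in the second library than in the first of IWP2_removed (28.8% and 16.4%), IWP2 (23.3% and 6.73%) and control (9.27% and 7.07%), from at most 47.1 estimated IIIb reads in a library, and this difference was not tested.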
